A study of Mus musculus with 12 samples.

Results

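DNA replication and G1/S genes are the genes whose products license origins, open and copy DNA, supply nucleotides and carry a cell from G1 into S phase. A list of 40 of them was followed by symbol through the 22180 genes of the array, and 39 were found. A gene counted as found where a probe set of the array (a transcript cluster) carried its symbol and no other, and the brightest such cluster stood for it. Rfc4, a subunit of the clamp loader, was not found because its only cluster also carries the symbol Eif4a2. Levels are log2 values, so a difference of 1 is a doubling. All 39 genes had a mean level above 5.60, the median of all genes, and their means over the 12 arrays ran from 6.94 to 11.66.

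The arrays measured RNA of alloreactive mouse T cells, which are T cells stimulated by dendritic cells of a different strain. T cells of C57BL6 mice with a Foxp3-GFP reporter, in which green fluorescent protein marks cells that express the regulatory T cell factor Foxp3, were plated at 200000 per well with 20000 CD11c dendritic cells of BALB/c mice. CD8 Foxp3-positive cells spent 4 days in culture with IL-2 (5 ng/mL), TGFB (5 ng/mL) and 40 nM retinoic acid and were then sorted as GFP-positive. CD8 control cells were cultured for 4 days with the same IL-2 alone and sorted as GFP-negative. CD4 Foxp3-positive and CD4 control cells had the matching treatments and sorts after 5 days. Each of the 4 groups has 3 arrays, replicates A to C. Cytokine treatment and reporter sort changed together, and lineage and culture time changed together, so neither pair can be told apart. Cells were pooled before staining, and nothing says that replicates came from separate animals or cultures, so p-values measure only the spread between these samples.

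Before S phase, the origin recognition complex, CDC6 and CDT1 load the MCM helicase onto DNA, and CDC45 and the GINS complex then activate it. DNA polymerases with their primase, the sliding clamp PCNA and its loader copy the strands, while flap endonuclease and ligase join the lagging strand and chromatin assembly factor places new histones. Cyclin E with CDK2 opens the way by inactivating the RB protein, which frees E2F factors to switch on many of these same genes. T cells answering an antigen divide quickly, and these transcripts are abundant in such cells.

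Promoter windows are shown because E2F factors act on many of these genes through a short DNA element. Windows of 250 bases before to 50 after a listed gene start were taken from RefSeq (GRCm38.p6) and were listed for 34 of the 39 genes, all but Mcm4, Gins1, Gins2, Prim2 and Pole. Both strands were searched for the 4 octamers TTTCCCGC, TTTGGCGC, TTTCGCGC and TTTGCCGC, and overlapping matches counted separately. At least 1 octamer lay in the windows of 15 of the 34 genes (44.1%), against 704 of 27025 genes with a window (2.6%). The pentamer CCAAT, searched the same way, lay in 20 of 34 (58.8%), against 41.1% of all genes. A match describes letters and not a bound site. The following windows belong to E2f2 and Orc1, which had some of the largest changes, to Rfc3, which fell in both lineages, to Mcm3 and Mcm5 as helicase subunits, and to Lig1, the gene that moved against the others, in the 1 of its 3 windows that holds an octamer. Capitals mark the octamers, on either strand, and those of Mcm5 overlap.
Orc1 promoter (chr4:108579204-108579503, plus strand): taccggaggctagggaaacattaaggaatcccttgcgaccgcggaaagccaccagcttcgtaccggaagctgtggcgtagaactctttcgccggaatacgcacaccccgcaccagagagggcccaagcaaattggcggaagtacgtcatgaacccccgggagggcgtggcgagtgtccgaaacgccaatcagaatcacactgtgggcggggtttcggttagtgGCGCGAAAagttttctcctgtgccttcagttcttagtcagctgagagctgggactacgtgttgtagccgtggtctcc
Mcm3 promoter (chr1:20820263-20820562, minus strand): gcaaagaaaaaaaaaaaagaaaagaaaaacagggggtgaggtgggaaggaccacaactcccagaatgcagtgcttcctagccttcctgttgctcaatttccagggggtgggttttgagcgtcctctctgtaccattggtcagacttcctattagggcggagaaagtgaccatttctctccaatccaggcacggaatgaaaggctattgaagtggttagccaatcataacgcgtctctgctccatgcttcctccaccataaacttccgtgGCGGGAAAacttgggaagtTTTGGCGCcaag
Mcm5 promoter (chr8:75109259-75109558, plus strand): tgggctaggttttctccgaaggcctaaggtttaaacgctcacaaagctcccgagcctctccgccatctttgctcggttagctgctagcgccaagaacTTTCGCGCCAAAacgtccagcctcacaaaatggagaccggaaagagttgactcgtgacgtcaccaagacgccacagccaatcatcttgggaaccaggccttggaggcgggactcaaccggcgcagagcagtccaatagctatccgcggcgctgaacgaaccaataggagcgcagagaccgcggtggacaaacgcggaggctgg
Rfc3 promoter (chr5:151651159-151651458, minus strand): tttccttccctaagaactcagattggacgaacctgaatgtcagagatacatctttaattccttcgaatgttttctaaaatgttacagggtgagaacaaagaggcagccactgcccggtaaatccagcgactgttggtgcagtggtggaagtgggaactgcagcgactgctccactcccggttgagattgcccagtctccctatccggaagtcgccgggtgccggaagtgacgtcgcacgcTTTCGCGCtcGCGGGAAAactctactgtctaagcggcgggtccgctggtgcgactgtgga
Lig1 promoter (chr7:13278576-13278875, plus strand): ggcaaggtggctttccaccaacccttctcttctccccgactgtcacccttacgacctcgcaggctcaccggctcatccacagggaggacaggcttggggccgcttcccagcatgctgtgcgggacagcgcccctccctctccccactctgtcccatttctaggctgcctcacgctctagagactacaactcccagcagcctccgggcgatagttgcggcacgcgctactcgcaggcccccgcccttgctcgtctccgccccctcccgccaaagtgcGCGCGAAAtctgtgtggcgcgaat
E2f2 promoter (chr4:136172024-136172323, plus strand): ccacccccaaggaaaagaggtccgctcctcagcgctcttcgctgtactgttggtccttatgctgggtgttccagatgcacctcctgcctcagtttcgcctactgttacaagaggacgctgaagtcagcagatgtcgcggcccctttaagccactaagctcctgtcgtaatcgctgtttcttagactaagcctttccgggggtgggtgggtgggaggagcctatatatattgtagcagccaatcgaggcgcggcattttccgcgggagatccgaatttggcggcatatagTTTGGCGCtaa

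The median of the 15 genes with an octamer was -0.68 for the log2 fold change in CD8 cells (Foxp3-positive against control), and that of the 19 genes without one was -0.61. In CD4 cells these medians were 0.02 and -0.06. Both sets thus lay close together within a lineage, and Lig1, which rose, belongs to the set with an octamer. Only exact matches to the listed octamers within these windows counted. Other forms of the element, or copies outside the windows, would be missed. The sets therefore do not divide genes that E2F factors act on from genes that they do not. Whether E2F factors had a part in the changes was not tested.

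Array medians lay between 5.23 and 5.33, and arrays of the same group correlated at 0.992 to 0.994 over all genes. Foxp3 measured 12.45, 12.46 and 12.53 in CD8 Foxp3-positive arrays, against 5.41, 5.23 and 6.33 in CD8 control arrays. In CD4 cells it measured 12.44, 12.39 and 12.49 in Foxp3-positive arrays, against 5.68, 6.07 and 5.52 in control arrays. The lineage markers went with the labels. Cd8a averaged 12.54 in CD8 Foxp3-positive and 11.79 in CD8 control arrays, against 7.54 in CD4 Foxp3-positive and 6.51 in CD4 control arrays. Cd4 averaged 5.17 in CD8 Foxp3-positive and 5.36 in CD8 control arrays, against 11.92 in CD4 Foxp3-positive and 12.31 in CD4 control arrays. CD8 control replicate C had the highest Foxp3 value of the controls, and for 34 of the 39 replication genes it was the lowest array of its group. Replicate C was also the lowest CD8 Foxp3-positive array for 31 genes, and replicate A the highest CD4 control array for 37. The counts without CD8 control replicate C stand beside the results below. Marker counts of other cell types stand beside the shares of all genes. These were 10.6% lower and 9.39% higher in CD8 cells, and 10.4% lower and 12.1% higher in CD4 cells. Dendritic cell markers, of the cells used to stimulate, were called lower for 2 of 11 in CD8 cells (Itgax and Batf3) and for 2 of 11 in CD4 cells (Batf3 and H2-Ab1). Their summed linear level was 1704 to 1937 in CD8 Foxp3-positive arrays, against 1654 to 2028 in CD8 control arrays. It was 1308 to 2018 in CD4 Foxp3-positive arrays, against 2072 to 2592 in CD4 control arrays. Itgax, which encodes the CD11c used to isolate the dendritic cells, averaged 4.77 in CD8 Foxp3-positive and 6.53 in CD8 control arrays, and 4.87 in CD4 Foxp3-positive and 4.95 in CD4 control arrays. Batf3 averaged 5.76 in CD8 Foxp3-positive and 6.72 in CD8 control arrays, and 5.56 in CD4 Foxp3-positive and 7.12 in CD4 control arrays. H2-Ab1 averaged 9.45 in CD8 Foxp3-positive and 9.49 in CD8 control arrays, and 8.95 in CD4 Foxp3-positive and 10.00 in CD4 control arrays. Flt3, Zbtb46, Xcr1 and Siglech had group means of 4.71 to 5.49, below the median of all genes, while H2-Ab1 and Cd209a were the brightest of the 11. Of other cell types, 2 of 6 B cell, 2 of 7 macrophage and 1 of 2 platelet markers were called higher in CD8 Foxp3-positive cells, and 1 macrophage and 1 of 5 NK cell markers lower. Their CD4 counts were 1 B cell and 1 macrophage marker higher, and 1 B cell, 1 macrophage and 3 NK cell markers lower. The shares called higher in CD8 cells were 33.3% of B cell, 28.6% of macrophage and 50% of platelet markers, against 9.39% of all genes. In CD4 cells 60% of NK cell markers were called lower, against 10.4% of all genes. With lists this small, 1 or 2 calls already make a large share. The median level of the B cell markers was 4.99 to 5.38 over all arrays, below the median of all genes. The summed B cell level was 485 to 542 in CD8 Foxp3-positive arrays, against 306 to 342 in CD8 control arrays, and 278 to 316 in CD4 Foxp3-positive arrays, against 238 to 248 in CD4 control arrays. The summed macrophage level was 403 to 575 in CD8 Foxp3-positive arrays, against 455 to 643 in CD8 control arrays, and 337 to 400 in CD4 Foxp3-positive arrays, against 542 to 589 in CD4 control arrays. The summed NK level was 1526 to 1974 in CD8 Foxp3-positive arrays, against 2349 to 3556 in CD8 control arrays, and 243 to 726 in CD4 Foxp3-positive arrays, against 7365 to 8904 in CD4 control arrays. The 5 NK markers were Ncr1, Klrb1c, Eomes, Klrk1 and Gzma. Their median log2 level was only 5.76 to 6.04 in CD4 control arrays, so a minority of the 5 carried the sum there. Whether these transcripts came from NK cells or from the T cells themselves was not tested. The part of these marker changes in the results was not tested.

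**Figure D1:**
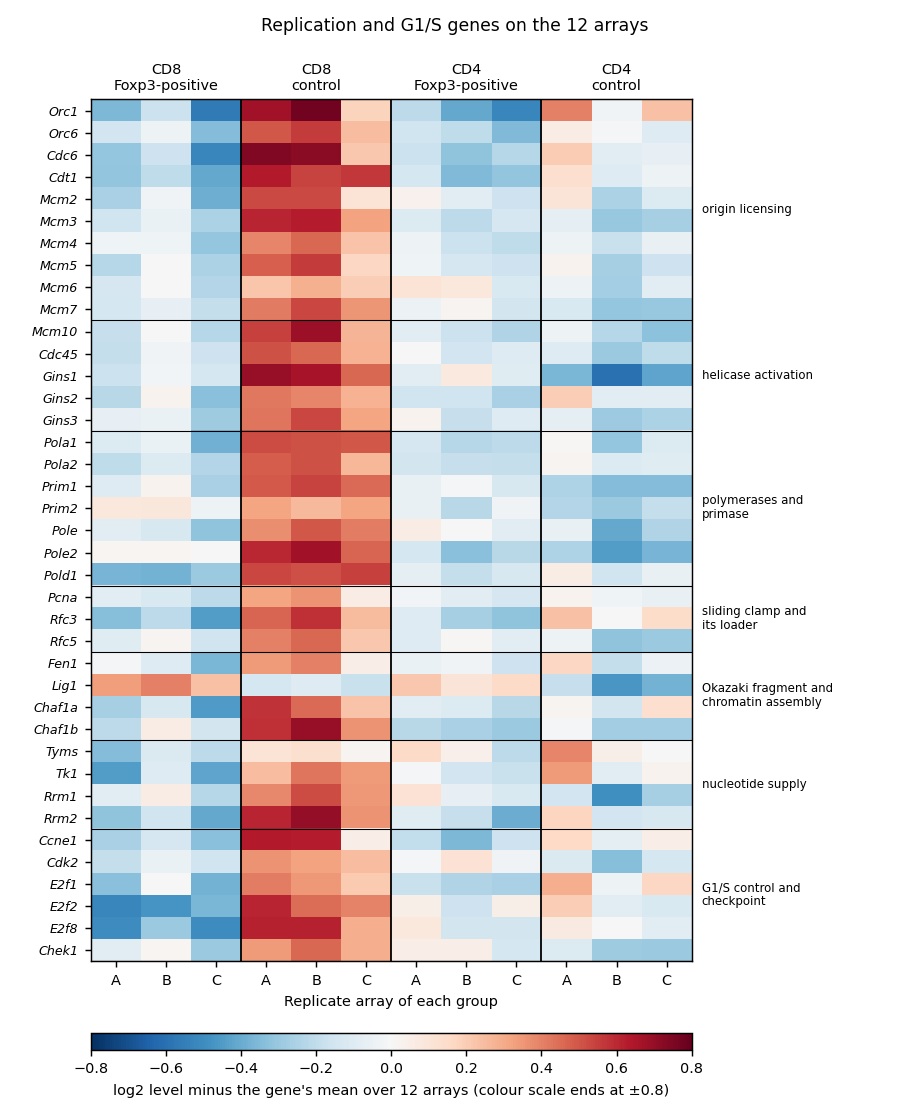
Level of each of the 39 genes (rows, by role) on each of the 12 arrays (columns, replicates A to C of 4 groups), as log2 level minus the gene's mean over all arrays. The CD8 control columns lie above the gene's mean for every row but Lig1, whose Foxp3-positive columns are the high ones, and Tyms peaks in CD4 control replicate A.

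In CD8 cells nearly the whole replication programme was lower when the cells were Foxp3-positive. Of the 39 genes 36 fell, 1 rose (the DNA ligase Lig1) and 2 did not pass the test (Tyms and Prim2), in a limma model over all 22180 genes with Benjamini-Hochberg adjustment and a threshold of 0.05. The background was 10.6% of all genes called lower and 9.39% called higher. Falls ran from 1.28-fold to 1.92-fold, the median log2 fold change of the 39 genes was -0.61, and that of all genes was -0.02. The arrays of both CD8 groups did not overlap for any of the 39 genes, a separation seen for 33.5% of all genes. In CD4 cells most of the same genes did not pass the test. There 3 fell (Orc1, E2f1 and Rfc3), 2 rose (Lig1 and Gins1) and 34 did not pass, against 10.4% of all genes called lower and 12.1% called higher. The 3 falls became 0 without CD4 control replicate A or C or CD4 Foxp3-positive replicate B or C, and 0 at a threshold of 0.01, while both rises were called without any 1 array and at 0.01. The CD4 arrays separated for 14 of 39 genes, against 37.8% of all genes, and the median was -0.05. The shares called in CD4 cells thus lie below those of all genes. Less RNA of these genes per cell and fewer cells in S phase cannot be told apart in bulk RNA.

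The mean level of the 39 genes was 9.03 ± 0.11 in CD8 Foxp3-positive arrays and 9.62 ± 0.12 in CD8 control arrays (SD, n = 3 each). In CD4 cells it was 9.09 ± 0.06 in Foxp3-positive arrays and 9.10 ± 0.12 in control arrays (SD, n = 3 each). The CD8 control group therefore stood alone, and the other groups lay within 0.1 of each other. Without CD8 control replicate C, 36 genes fell and 1 rose in CD8 cells, with a median of -0.66. Among CD8 falls only those of Mcm6 and Fen1 lost their call without some single array.

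**Figure D2:**
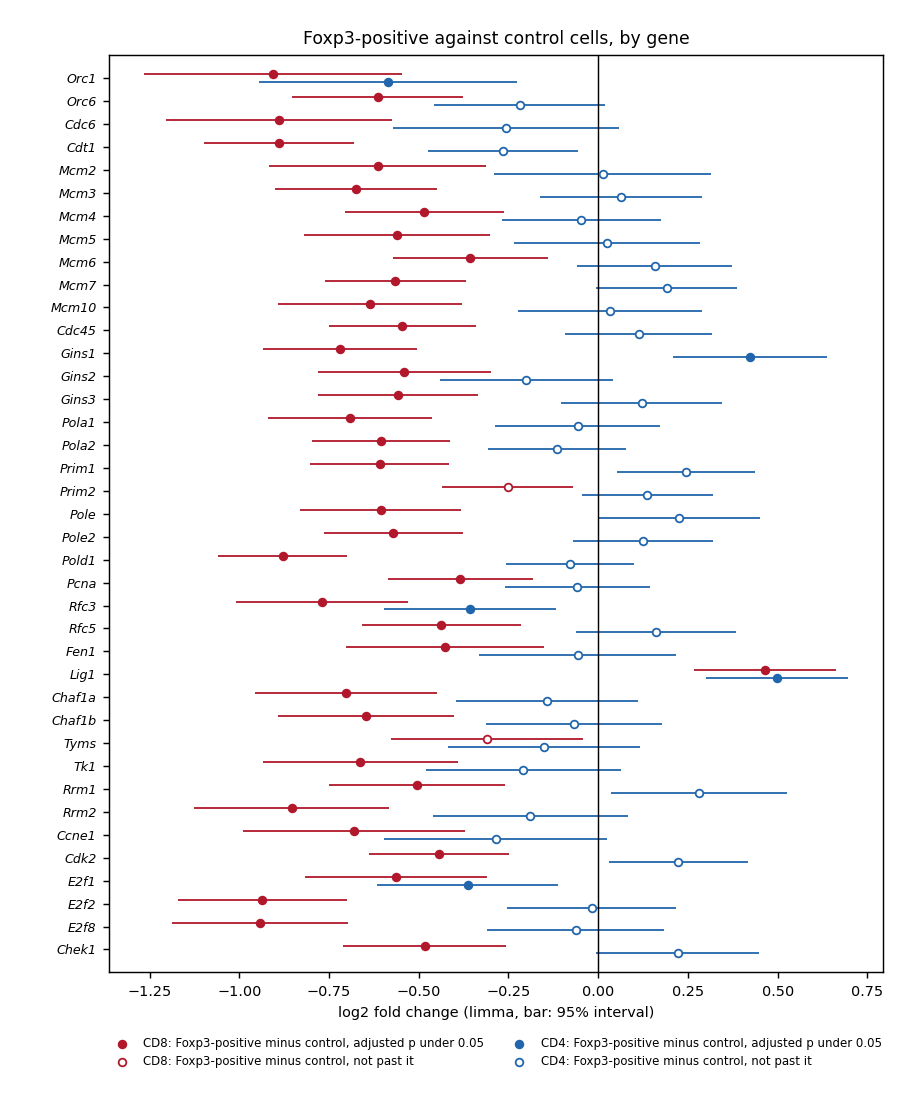
Log2 fold change of each gene, Foxp3-positive against control, in CD8 cells (red) and CD4 cells (blue), with 95% intervals of the limma fit; filled points passed an adjusted p of 0.05. Every red point but that of Lig1 lies left of 0, while most blue intervals cross 0.

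Origin licensing genes fell together in CD8 cells, 10 of 10, against 10.6% of all genes, with a median of -0.61. Orc1 encodes the ATPase subunit that starts assembly of the origin recognition complex. It measured 6.58, 6.77 and 6.37 in CD8 Foxp3-positive arrays, against 7.61, 7.71 and 7.11 in CD8 control arrays. In CD4 cells it measured 6.73, 6.53 and 6.41 in Foxp3-positive arrays, against 7.34, 6.91 and 7.17 in control arrays. Foxp3-positive arrays were the lower ones in both lineages, with no overlap. The log2 fold change was -0.91 ± 0.17 (SE; adjusted p = 0.00151, limma) in CD8 cells and -0.59 ± 0.17 (adjusted p = 0.0219) in CD4 cells. The CD4 call of Orc1 was lost without CD4 control replicate A or C or CD4 Foxp3-positive replicate B or C (adjusted p 0.0624 to 0.0868). Orc6, another subunit, fell by 0.61 in CD8 cells (adjusted p = 0.00129, limma) and had -0.22 in CD4 cells (adjusted p = 0.188).

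Cdc6 and Cdt1 encode the loading factors that bring the helicase to an origin. Cdc6 measured 8.79, 8.93 and 8.57 in CD8 Foxp3-positive arrays, against 9.83, 9.82 and 9.31 in CD8 control arrays. CD4 levels of Cdc6 were 8.92, 8.77 and 8.87 in Foxp3-positive arrays, against 9.30, 9.00 and 9.03 in control arrays. All 3 CD8 control arrays stood above every other array, although replicate C only just. The change was -0.89 (95% interval -1.21 to -0.58, adjusted p = 0.000650) in CD8 cells and -0.26 (-0.57 to 0.06, adjusted p = 0.249) in CD4 cells, by limma. Cdt1 measured 9.00, 9.12 and 8.91 in CD8 Foxp3-positive arrays, against 9.95, 9.86 and 9.89 in CD8 control arrays. Its CD4 values were 9.18, 8.96 and 9.00 in Foxp3-positive arrays, against 9.45, 9.21 and 9.27 in control arrays. Cdt1 thus had a wide gap between the CD8 groups and a narrow one between the CD4 groups. It fell by 0.89 in CD8 cells (adjusted p = 2.43e-05, limma), and in CD4 cells its -0.26 missed the threshold (adjusted p = 0.0696). The CD4 fall of Cdt1 passed with a trended and robust prior (0.0299) and with only genes above the median level tested (0.0276). It also passed after a second quantile normalisation (0.0478) and without CD4 Foxp3-positive replicate A (0.0469).

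Mcm2 to Mcm7 encode the 6 subunits of the ring helicase, and all 6 fell in CD8 cells. Mcm2 measured 9.70, 9.94 and 9.57 in CD8 Foxp3-positive arrays, against 10.49, 10.50 and 10.07 in CD8 control arrays. Mcm3, whose window holds an octamer on each strand, measured 10.36, 10.46 and 10.27 in CD8 Foxp3-positive arrays, against 11.13, 11.15 and 10.84 in CD8 control arrays. For both, control replicate C lay closest to the Foxp3-positive arrays without meeting them. Mcm4 measured 10.57, 10.57 and 10.30 in CD8 Foxp3-positive arrays, against 11.00, 11.07 and 10.83 in CD8 control arrays. Mcm5 measured 10.63, 10.85 and 10.60 in CD8 Foxp3-positive arrays, against 11.33, 11.41 and 11.02 in CD8 control arrays. These pairs of groups were also separate, with the highest Foxp3-positive array in replicate B for Mcm5. Mcm6 measured 10.73, 10.87 and 10.64 in CD8 Foxp3-positive arrays, against 11.09, 11.15 and 11.06 in CD8 control arrays. Mcm7 measured 10.10, 10.18 and 10.05 in CD8 Foxp3-positive arrays, against 10.66, 10.78 and 10.59 in CD8 control arrays. Groups were separate for these as well, and of the 6 subunits Mcm6 changed least and Mcm3 most. The log2 fold changes, from Mcm2 to Mcm7, were -0.61, -0.68, -0.48, -0.56, -0.36 and -0.57, with adjusted p-values in limma from 0.000420 for Mcm3 to 0.0219 for Mcm6. Leaving out CD8 control replicate A or B or CD8 Foxp3-positive replicate A or C ended the call of Mcm6 (adjusted p 0.0567 to 0.0925), as did a second quantile normalisation (adjusted p = 0.0582).

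The helicase subunits did not pass in CD4 cells. Mcm2 measured 10.00, 9.87 and 9.80 in CD4 Foxp3-positive arrays, against 10.07, 9.71 and 9.85 in CD4 control arrays. For Mcm3 the CD4 values were 10.41, 10.31 and 10.38 in Foxp3-positive arrays, against 10.45, 10.22 and 10.26 in control arrays. Both genes had overlapping CD4 groups, with control replicate A the highest array. For Mcm4 they were 10.56, 10.43 and 10.40 in Foxp3-positive arrays, against 10.56, 10.43 and 10.54 in control arrays. For Mcm5 they were 10.82, 10.72 and 10.69 in Foxp3-positive arrays, against 10.88, 10.59 and 10.69 in control arrays. The CD4 groups overlapped for both. For Mcm6 they were 10.98, 10.96 and 10.75 in Foxp3-positive arrays, against 10.83, 10.60 and 10.79 in control arrays. For Mcm7 they were 10.20, 10.27 and 10.10 in Foxp3-positive arrays, against 10.12, 9.94 and 9.94 in control arrays. Mcm7 had the largest CD4 estimate of the 6 subunits, with 2 of 3 Foxp3-positive arrays above all control arrays. From Mcm2 to Mcm7 the CD4 log2 fold changes were 0.01, 0.06, -0.05, 0.02, 0.16 and 0.19, and their 95% intervals reached no lower than -0.29 and no higher than 0.39.

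Helicase activation genes fell for 5 of 5 members in CD8 cells, against 10.6% of all genes, with a median of -0.56. In CD4 cells 1 of 5 rose, against 12.1% of all genes, too few genes for a statement about the class. That 1 was Gins1, a subunit of the GINS ring that joins CDC45 on the helicase. Gins1 measured 7.54, 7.69 and 7.57 in CD8 Foxp3-positive arrays, against 8.41, 8.37 and 8.18 in CD8 control arrays. In CD4 cells Gins1 measured 7.63, 7.79 and 7.62 in Foxp3-positive arrays, against 7.35, 7.12 and 7.29 in control arrays. The groups did not overlap in either lineage, and their order was opposite. Gins1 changed by -0.72 ± 0.10 in CD8 cells (SE; adjusted p = 0.000172, limma) and by 0.42 ± 0.10 in CD4 cells (adjusted p = 0.00715), and no single array decided either call. Mcm10, which helps CDC45 onto the helicase, fell by 0.64 in CD8 cells, Cdc45 by 0.55, Gins2 by 0.54 and Gins3 by 0.56, all with adjusted p-values of 0.00346 or less in limma. In CD4 cells these 4 ran from -0.20 (Gins2) to 0.12 (Gins3) and none passed.

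**Figure D3:**
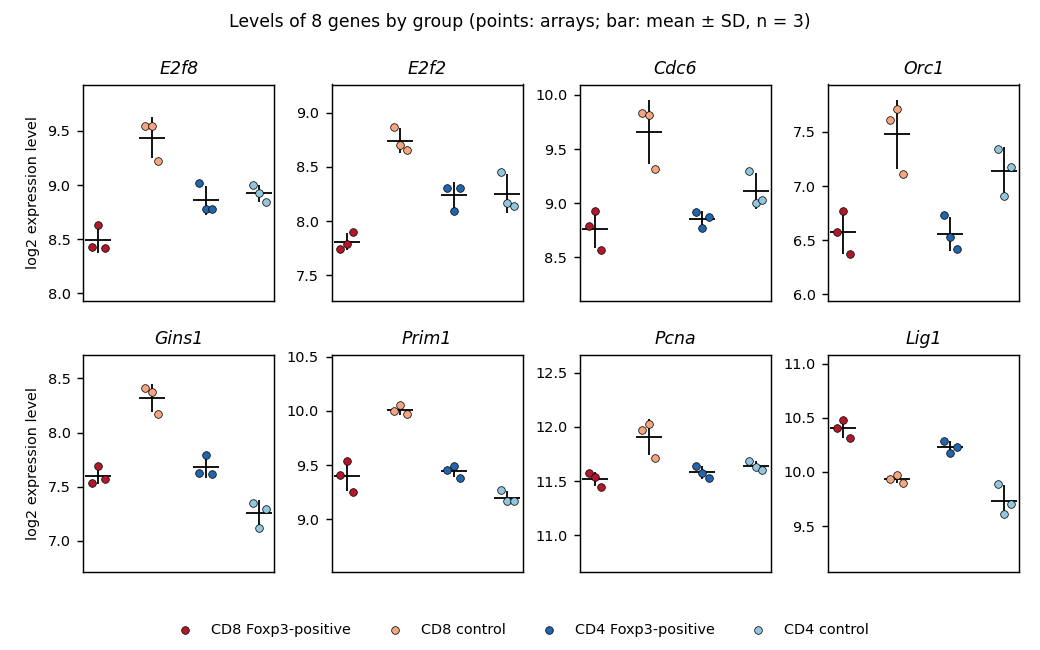
Log2 expression level of 8 genes on the 3 arrays of each group (points), with mean ± SD (bars), each panel spanning 2 log2 units. The CD8 control mean is the highest for every gene but Lig1, for which both Foxp3-positive groups stand above both control groups.

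Of the polymerases and primase, 6 of 7 fell in CD8 cells, against 10.6% of all genes, and none of 7 passed in CD4 cells. Pold1, the catalytic subunit of polymerase delta, which extends the lagging strand, had the largest fall of this class, to 8.80 ± 0.04 in CD8 Foxp3-positive arrays, against 9.68 ± 0.02 in CD8 control arrays (SD, n = 3 each). Its log2 fold change was -0.88 ± 0.08 in CD8 cells (SE; adjusted p = 6.82e-06, limma) and -0.08 in CD4 cells (adjusted p = 0.562). Prim1, the catalytic primase subunit that lays down RNA primers, measured 9.41, 9.54 and 9.25 in CD8 Foxp3-positive arrays, against 10.00, 10.06 and 9.97 in CD8 control arrays. In CD4 cells Prim1 measured 9.45, 9.50 and 9.38 in Foxp3-positive arrays, against 9.27, 9.17 and 9.17 in control arrays. Foxp3-positive arrays were the lower ones in CD8 cells and the higher ones in CD4 cells, with no overlap in either. Prim1 fell by 0.61 in CD8 cells (adjusted p = 0.000277, limma), and its 0.24 in CD4 cells missed the threshold (adjusted p = 0.0688), which it passed with only genes above the median level tested (adjusted p = 0.0253).

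Pole encodes the catalytic subunit of polymerase epsilon, which copies the leading strand. Pole measured 9.04, 9.00 and 8.80 in CD8 Foxp3-positive arrays, against 9.50, 9.62 and 9.53 in CD8 control arrays. In CD4 cells Pole measured 9.18, 9.13 and 9.04 in Foxp3-positive arrays, against 9.07, 8.72 and 8.89 in control arrays. The CD8 groups were apart and the CD4 groups overlapped through control replicate A. Pole fell by 0.61 in CD8 cells (adjusted p = 0.000940, limma) and had 0.23 in CD4 cells (adjusted p = 0.148). A second, dim Pole cluster (mean 5.22) had -0.05 in CD8 cells (adjusted p = 0.861). Pole2, its partner subunit, fell by 0.57, and Pola1 and Pola2 of polymerase alpha, which extends the primers, fell by 0.69 and 0.60.

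Prim2, the large primase subunit, did not pass in CD8 cells. It measured 10.06, 10.06 and 9.93 in CD8 Foxp3-positive arrays, against 10.28, 10.23 and 10.29 in CD8 control arrays. CD4 values of Prim2 were 9.91, 9.75 and 9.94 in Foxp3-positive arrays, against 9.74, 9.67 and 9.78 in control arrays. The CD8 groups were separate but close, and both CD4 means lay below both CD8 means. Its change was -0.25 (95% interval -0.43 to -0.07, adjusted p = 0.0520) in CD8 cells and 0.14 (-0.05 to 0.32, adjusted p = 0.293) in CD4 cells, by limma. It passed in CD8 cells with a trended and robust prior (adjusted p = 0.0137) and with only genes above the median level tested (0.0153).

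All 3 measured genes of the sliding clamp and its loader fell in CD8 cells, against 10.6% of all genes. Pcna, the clamp that tethers polymerases to DNA, had the highest level of the 39 genes and measured 11.57, 11.54 and 11.45 in CD8 Foxp3-positive arrays, against 11.97, 12.02 and 11.72 in CD8 control arrays. Its CD4 levels were 11.64, 11.57 and 11.53 in Foxp3-positive arrays, against 11.69, 11.63 and 11.60 in control arrays. CD8 control arrays were the highest, with replicate C the closest to the other groups. Pcna fell by 0.38 in CD8 cells (adjusted p = 0.00992, limma) and had -0.06 in CD4 cells (adjusted p = 0.727). Rfc3, a small subunit of the clamp loader, measured 7.34, 7.47 and 7.23 in CD8 Foxp3-positive arrays, against 8.15, 8.27 and 7.93 in CD8 control arrays. In CD4 cells Rfc3 measured 7.58, 7.41 and 7.36 in Foxp3-positive arrays, against 7.91, 7.68 and 7.83 in control arrays. Both lineages had lower Foxp3-positive arrays without overlap. The changes of Rfc3 were -0.77 ± 0.11 in CD8 cells (SE; adjusted p = 0.000242, limma) and -0.36 ± 0.11 in CD4 cells (adjusted p = 0.0336). The CD4 call was lost without CD4 control replicate A or C or CD4 Foxp3-positive replicate B or C (adjusted p 0.0869 to 0.113) and with arrays centred on the median (0.0773). Rfc5, another loader subunit, fell by 0.44 in CD8 cells (adjusted p = 0.00818, limma) and had 0.16 in CD4 cells.

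Lig1, the ligase that seals Okazaki fragments, rose in both lineages. It measured 10.41, 10.48 and 10.31 in CD8 Foxp3-positive arrays, against 9.94, 9.98 and 9.89 in CD8 control arrays. In CD4 cells Lig1 measured 10.29, 10.18 and 10.23 in Foxp3-positive arrays, against 9.89, 9.61 and 9.70 in control arrays. All 6 Foxp3-positive arrays stood above all 6 control arrays. The rise was 0.47 ± 0.09 (1.38-fold) in CD8 cells and 0.50 ± 0.09 (1.41-fold) in CD4 cells, with adjusted p-values of 0.00247 and 0.00136 in limma, and no single array decided either call. Fen1, which trims the flaps that Lig1 then seals, fell by 0.43 in CD8 cells (adjusted p = 0.0304, limma). Leaving out CD8 control replicate A or B or CD8 Foxp3-positive replicate B or C ended that call (adjusted p 0.0549 to 0.132), as did a fit of the CD8 arrays alone (0.0617). The large chromatin assembly factor subunits Chaf1a and Chaf1b fell by 0.70 and 0.65 in CD8 cells and had -0.14 and -0.07 in CD4 cells.

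Among nucleotide supply genes, 3 of 4 fell in CD8 cells, against 10.6% of all genes, and none of 4 passed in CD4 cells. Rrm2, the ribonucleotide reductase subunit that limits deoxynucleotide synthesis in S phase, fell to 9.78 ± 0.13 in CD8 Foxp3-positive arrays, against 10.63 ± 0.18 in CD8 control arrays (SD, n = 3 each). That is -0.85 (adjusted p = 0.000287, limma), and a dimmer second Rrm2 cluster fell by 0.58 (adjusted p = 0.0374). Rrm1, the partner subunit, fell by 0.51 and the thymidine kinase Tk1 by 0.66. Tyms, which makes thymidylate, measured 8.42, 8.65 and 8.56 in CD8 Foxp3-positive arrays, against 8.88, 8.90 and 8.79 in CD8 control arrays. For Tyms the CD4 levels were 8.92, 8.81 and 8.56 in Foxp3-positive arrays, against 9.16, 8.81 and 8.77 in control arrays. The CD8 groups did not overlap, and the CD4 control arrays included the highest of all 12. Tyms had -0.31 in CD8 cells (95% interval -0.58 to -0.04, adjusted p = 0.104, limma), which passed with only genes above the median level tested (0.0461), and -0.15 in CD4 cells (-0.42 to 0.12, adjusted p = 0.445).

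The G1/S control genes fell for 6 of 6 members in CD8 cells, against 10.6% of all genes, and held the steepest falls of the whole set. E2f8 encodes an atypical E2F that represses E2F targets late in S phase. E2f8 measured 8.42, 8.63 and 8.42 in CD8 Foxp3-positive arrays, against 9.55, 9.55 and 9.22 in CD8 control arrays. In CD4 cells E2f8 measured 9.01, 8.78 and 8.78 in Foxp3-positive arrays, against 9.00, 8.93 and 8.84 in control arrays. The CD8 control arrays were the highest and the CD8 Foxp3-positive arrays the lowest of all 12, while both CD4 groups lay between them and overlapped. E2f8 fell 1.92-fold in CD8 cells (-0.94 ± 0.11, SE; adjusted p = 5.65e-05, limma) and had -0.06 ± 0.11 in CD4 cells (adjusted p = 0.757). E2f2, an activating E2F, measured 7.74, 7.79 and 7.90 in CD8 Foxp3-positive arrays, against 8.87, 8.71 and 8.65 in CD8 control arrays. Its CD4 levels were 8.31, 8.09 and 8.31 in Foxp3-positive arrays, against 8.46, 8.17 and 8.14 in control arrays. The pattern is that of E2f8, with CD8 groups at the extremes and overlapping CD4 groups between. E2f2 fell 1.91-fold in CD8 cells (-0.94 ± 0.11, SE; adjusted p = 4.27e-05, limma) and had -0.02 ± 0.11 in CD4 cells (adjusted p = 0.935).

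E2f1, another activating E2F, measured 7.65, 7.98 and 7.61 in CD8 Foxp3-positive arrays, against 8.40, 8.34 and 8.20 in CD8 control arrays. In CD4 cells E2f1 measured 7.81, 7.75 and 7.73 in Foxp3-positive arrays, against 8.28, 7.95 and 8.15 in control arrays. Foxp3-positive arrays were the lower ones in both lineages, without overlap. E2f1 fell by 0.56 in CD8 cells (adjusted p = 0.00359, limma) and by 0.36 in CD4 cells (adjusted p = 0.0399). The CD4 call ended without CD8 control replicate B, CD4 control replicate A or C, or any 1 of the CD4 Foxp3-positive arrays (adjusted p 0.0511 to 0.143), with arrays centred on the median (0.0933), and with the replicate letter as a block (0.0520).

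Ccne1 encodes cyclin E1, the cyclin that drives entry into S phase. It measured 8.77, 8.90 and 8.69 in CD8 Foxp3-positive arrays, against 9.66, 9.66 and 9.08 in CD8 control arrays. Its CD4 values were 8.83, 8.67 and 8.86 in Foxp3-positive arrays, against 9.19, 8.95 and 9.09 in control arrays. CD8 control replicate C was far below its fellow arrays and lay among the CD4 control arrays. Ccne1 fell by 0.68 in CD8 cells (adjusted p = 0.00393, limma) and had -0.29 in CD4 cells (adjusted p = 0.187). Cdk2, the kinase partner of cyclin E1, measured 9.58, 9.72 and 9.61 in CD8 Foxp3-positive arrays, against 10.13, 10.10 and 10.02 in CD8 control arrays. CD4 values of Cdk2 were 9.76, 9.89 and 9.74 in Foxp3-positive arrays, against 9.66, 9.43 and 9.63 in control arrays. Foxp3-positive arrays of Cdk2 were the lower ones in CD8 cells and the higher ones in CD4 cells, with no overlap. Cdk2 fell by 0.44 in CD8 cells (adjusted p = 0.00303, limma), and its 0.22 in CD4 cells missed the threshold (adjusted p = 0.0982). Chek1, the kinase that restrains S phase when forks stall, fell by 0.48 in CD8 cells (adjusted p = 0.00475, limma) and had 0.22 in CD4 cells (adjusted p = 0.161).

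Whether the lineages differed was tested as an interaction, the CD8 effect minus the CD4 effect. It was below 0 for all 39 genes and passed for 25 of them, against 7.48% of all genes called in that direction, and for 0 in the other direction (6.01% of all genes). The median was -0.63, against -0.01 for all genes. Gins1 had the largest difference, -1.14 ± 0.14 (SE; adjusted p = 0.000187, limma). It was followed by E2f2 at -0.92 (adjusted p = 0.00177), E2f8 at -0.88 (0.00295), Prim1 at -0.85 (0.000720) and Pole at -0.83 (0.00242). All 7 polymerase and primase genes passed, along with 4 of 5 helicase activators, 5 of 10 licensing genes, 4 of 6 control genes, 2 of 4 nucleotide genes, 2 of 4 Okazaki and chromatin genes and 1 of 3 clamp genes. With the replicate letter as a block Prim2 lost its call (adjusted p = 0.0629). Without CD8 control replicate C 31 genes passed, and without CD8 control replicate A 18. Of the 25 genes 18 kept their call whichever 1 array was left out. The other 7 were Chaf1a, Chaf1b, Mcm5, Mcm6, Pola2, Prim2 and Rrm2, each of which lost it without CD8 control replicate A or B and without other single arrays.

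Of the 5 genes called in CD4 cells, Gins1 had a called difference between lineages and the other 4 did not. Orc1 had an interaction of -0.32 (95% interval -0.83 to 0.19, adjusted p = 0.444, limma), E2f1 -0.20 (-0.56 to 0.16, adjusted p = 0.506) and Rfc3 -0.41 (-0.75 to -0.07, adjusted p = 0.109). For Lig1 it was -0.03 (-0.31 to 0.25, adjusted p = 0.915). Lig1 had the estimate closest to 0 of the 39 genes, whereas the intervals of Orc1, E2f1 and Rfc3 still allow sizeable differences. Cdc6 and Mcm2 just missed the threshold, at -0.63 (adjusted p = 0.0606) and -0.63 (0.0534), and both passed with the replicate letter as a block (0.0389 and 0.0377). The remaining genes not called were Orc6, Mcm4, Gins2, Pcna, Fen1, Tyms, Tk1 and Ccne1.

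Across the 39 genes the CD8 and CD4 effects, which share no arrays, had a Pearson correlation of 0.547 and a Spearman correlation of 0.479. Over all 22180 genes Pearson's r was 0.554. These describe how the points lie, since genes measured on the same arrays are not independent. The spread over genes was similar in both lineages, with an SD of 0.25 in CD8 cells and 0.23 in CD4 cells, around medians of -0.61 and -0.05.

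**Figure D4:**
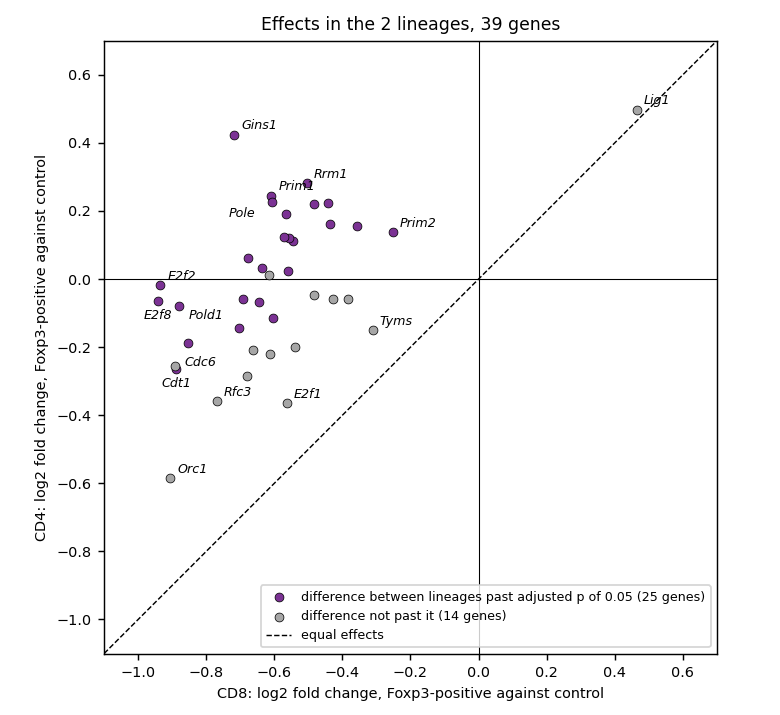
Log2 fold change of each of the 39 genes in CD8 cells (horizontal) against CD4 cells (vertical), Foxp3-positive against control, with the 25 genes whose difference passed in purple and the other 14 in grey. All points lie above the dashed line of equal effects, with Lig1 closest to it and Gins1 farthest from it.

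The lineages were also compared within each culture condition, using the same arrays as the comparisons above. Between the Foxp3-positive groups the genes lay close together. E2f2 was lower in CD8 cells (-0.43, 95% interval -0.66 to -0.19, adjusted p = 0.0426, limma), the other 38 genes did not pass, and the median was -0.05, against 2.3% of all genes called lower and 2.41% called higher. Arrays separated for 7 of 39 genes, against 22.7% of all genes. The 95% intervals of the 38 genes ran from -0.61 to 0.44. The E2f2 call was lost in a fit of these groups alone (adjusted p = 0.0599). It also ended without CD8 control replicate B, any 1 CD8 Foxp3-positive array, CD4 control replicate B, or CD4 Foxp3-positive replicate A or C (0.0524 to 0.142). E2f8 had -0.37 (adjusted p = 0.101).

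Between the control groups 30 of 39 genes were higher in CD8 cells and 0 were lower, against 12.1% of all genes called higher and 8.76% called lower. Arrays of the control groups separated for 33 of 39 genes, against 33.7% of all genes, and the median was 0.54, against 0.00414 for all genes. Gins1 had the largest difference, 1.07 ± 0.10 (2.09-fold; adjusted p = 8.45e-06, limma). Next came Pole2 at 0.94 (adjusted p = 1.11e-05) and Prim1 at 0.81 (3.19e-05). The genes not called were Orc1, Pcna, Rfc3, Fen1, Lig1, Tyms, Tk1, Ccne1 and E2f1, from -0.06 for Tyms to 0.39 for Ccne1. Without CD8 control replicate C 35 genes were higher. The calls of Cdc6, Mcm2, Mcm6, Gins2 and Chaf1a were each lost without CD8 control replicate A or B, and without at least 1 CD4 control array (adjusted p 0.0510 to 0.133), and that of Gins2 also without CD4 Foxp3-positive replicate A (0.0501).

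Group means can also be read as an order for each gene. The CD8 control mean was the highest of the 4 groups for 37 of 39 genes, all but Lig1 and Tyms. Every CD8 control array stood above all 9 other arrays for 32 genes. Neither of these counts was taken over all genes, so how common such an order is on these arrays is not known. The lowest mean was that of CD8 Foxp3-positive cells for 17 genes, of CD4 control cells for 16 and of CD4 Foxp3-positive cells for 6. For 14 genes CD8 control was followed by CD4 control, CD4 Foxp3-positive and CD8 Foxp3-positive cells, and for 12 genes by CD4 Foxp3-positive, CD8 Foxp3-positive and CD4 control cells. Few genes were called between the Foxp3-positive groups or within CD4 cells. CD8 Foxp3-positive and CD4 control cells, neighbours in some of these orders, were not tested against each other. The order of the groups below CD8 control cells is thus not settled for most genes.

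Other genes of the pathway were read from 5 lists without the 39 genes. Of all genes, 10.6% were called lower and 9.39% higher in CD8 cells, and 10.4% lower and 12.1% higher in CD4 cells. Of 38 other replication proteins 27 fell and 1 rose in CD8 cells, with a median of -0.49. Hells, a chromatin remodeller active in S phase, measured 8.52, 8.61 and 8.25 in CD8 Foxp3-positive arrays, against 9.72, 9.84 and 9.61 in CD8 control arrays. It fell by 1.27 (adjusted p = 2.68e-06, limma), more than any of the 39 genes. Uhrf1, which guides maintenance DNA methylation at forks, fell by 1.08 and the histone chaperone Nasp by 0.99. Rpa1, the large subunit of the single-strand binding protein, rose in CD8 cells (0.31, adjusted p = 0.0141) and in CD4 cells (0.33, adjusted p = 0.00916), as Lig1 did, while its partners Rpa2 and Rpa3 fell by 0.70 and 0.69 in CD8 cells. In CD4 cells 6 of 38 rose (15.8%, near the 12.1% of all genes) and 0 fell, with a median of 0.13, and the brightest gene that passed in neither lineage was the topoisomerase Top1. Rpa2, Rpa3 and the genes called in CD4 cells, which were Orc3, Orc5, Mcm8, Mcmbp, Rnaseh2a and Rpa1, are partly named outside the naming rule, after their values were seen.

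Of 18 other nucleotide supply genes 12 fell and 2 rose in CD8 cells. That is 66.7% lower, against 10.6% of all genes, and 11.1% higher, near the 9.39% of all genes. The falls were led by the folate cycle enzymes Shmt2 (-0.95), Shmt1 (-0.92) and Mthfd1 (-0.85). The mitochondrial thymidine kinase Tk2 (0.63) and Samhd1 (0.66), which breaks down deoxynucleotides, rose. In CD4 cells 4 rose (22.2%, against 12.1% of all genes) and 1 fell (5.56%, against 10.4%). Tk2 at 0.34 and Samhd1 at 0.50 were among the rises, and the folate enzyme Mthfd2 fell by 0.62. Tk2 and Samhd1 therefore rose in both lineages. Cad, which starts pyrimidine synthesis, was the brightest gene that passed in neither.

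Cyclins, kinases and inhibitors of G1 behaved less uniformly. In CD8 cells 10 of 16 fell and 1 rose, and in CD4 cells 5 fell and 3 rose. The shares called higher, 6.25% in CD8 cells and 18.75% in CD4 cells, lie near those of all genes (9.39% and 12.1%). The shares called lower were larger than those of all genes, at 62.5% against 10.6% in CD8 cells and 31.25% against 10.4% in CD4 cells. The kinase Cdk6, which acts with D cyclins early in G1, measured 9.80, 9.86 and 9.66 in CD8 Foxp3-positive arrays, against 11.12, 11.14 and 10.63 in CD8 control arrays. In CD4 cells Cdk6 measured 9.89, 9.93 and 9.86 in Foxp3-positive arrays, against 11.30, 11.27 and 11.36 in control arrays. Foxp3-positive arrays of both lineages were lower with a wide gap, and CD8 control replicate C came closest to them. Cdk6 fell by 1.19 in CD8 cells and by 1.42 in CD4 cells (adjusted p = 1.65e-05 and 2.47e-06, limma). Cdkn1a, the inhibitor p21, fell by 1.12 in CD8 cells and by 1.45 in CD4 cells, and cyclin D3 (Ccnd3) fell by 0.75 and 0.84. Cdk4 went apart from Cdk6, with a fall of 0.41 in CD8 cells and a rise of 0.28 in CD4 cells (interaction -0.70, adjusted p = 0.00323, limma). The inhibitors Cdkn1b and Cdkn2c rose in CD4 cells by 0.48 and 0.44, and Ccnd1 rose in CD8 cells by 0.34 at a level near the median of all genes. Cks1b was the brightest that passed in neither.

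Of 15 E2F, RB and MYC factors 7 fell and 0 rose in CD8 cells, led by Mybl2, an S phase transcription factor, at -0.80. The CD8 shares were 46.7% lower and 0% higher, against 10.6% and 9.39% of all genes. In CD4 cells 4 fell and 4 rose, 26.7% each, against 10.4% of all genes called lower and 12.1% called higher. Myc, a growth-promoting transcription factor, measured 11.28, 11.18 and 11.04 in CD8 Foxp3-positive arrays, against 11.06, 10.93 and 10.67 in CD8 control arrays. In CD4 cells Myc measured 11.21, 11.08 and 11.27 in Foxp3-positive arrays, against 10.43, 10.36 and 10.23 in control arrays. The CD4 control arrays were the lowest of the 12 and overlapped with no other group. Myc rose by 0.85 in CD4 cells (adjusted p = 0.000103, limma) and had 0.28 in CD8 cells (adjusted p = 0.111), and Mycn fell by 0.76 in CD4 cells. Rb1, the RB protein, was the brightest that passed in neither. Of 16 S phase checkpoint and repair genes 11 fell (68.75%, against 10.6% of all genes) and 0 rose in CD8 cells. Bard1 (-1.02) and Brca2 (-0.77) of homologous recombination led the falls. In CD4 cells 4 rose (25%, against 12.1% of all genes) and 0 fell, led by Rad51ap1 (0.76). Msh6, of mismatch repair, was the brightest that passed in neither.

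Mitosis genes, set beside the 39 genes as the next phase of the cycle, gave 18 of 19 lower in CD8 cells with a median of -0.53, against 10.6% of all genes. In CD4 cells 8 of 19 were higher and 0 lower, against 12.1% and 10.4% of all genes, with a median of 0.26, where the replication genes had 2 higher, 3 lower and a median of -0.05. No test of the difference between these lists was made. Between the control groups 19 of 19 mitosis genes were higher in CD8 cells, against 12.1% of all genes.

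**Figure D5:**
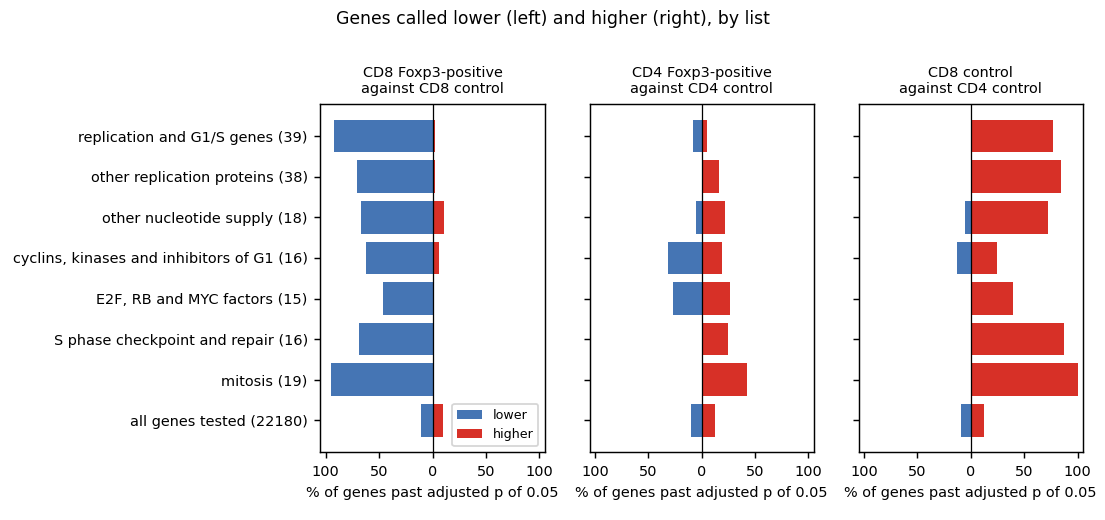
Share of the genes of each list called lower (left of 0, blue) and higher (right of 0, red) at an adjusted p under 0.05, in percent, with the number of genes measured in brackets. Lower calls outnumber higher ones in all 7 cell cycle lists in CD8 Foxp3-positive against CD8 control cells, the CD4 comparison has shorter lower bars in every such list, and CD8 control cells exceed CD4 control cells for most genes of 5 of the 7 cell cycle lists.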

How the data were processed

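RNA of sorted T cells (250 ng per sample) was labelled for 12 Affymetrix arrays, per the labels' protocols. Each deposited value is the log2 expression level of a transcript cluster on 1 array. The submitters' processing notes name RMA and Affymetrix Expression Console. RMA normalises arrays to each other, so a change in total RNA per cell would not show. Their versions, the genome build and the cluster annotation used are not stated in the labels. No batch or scan date is given, and none could be tested.

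Of 34365 clusters 23521 carry 1 symbol. For 1082 genes with several clusters, the brightest over all arrays was used, leaving 22180 genes with no filter on level. All 12 arrays entered 1 model with 4 group means (R 4.3.3, limma 3.58.1 with lmFit and eBayes, no trend, not robust, 8 residual degrees of freedom and 4.56 from the prior). Tests were two-sided, with Benjamini-Hochberg adjustment over all genes and a threshold of 0.05. The second clusters of Pole, Fen1 and Rrm2 were adjusted over all clusters with 1 symbol. The fit was tested on simulated data. The number of arrays limits the precision. Sequences and gene starts come from RefSeq (GRCm38.p6).

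The genes and lists were chosen with earlier results of these data known. Values on every array are given for the 5 largest and 3 smallest changes of each Foxp3-positive comparison, the 5 largest interactions, Ccne1, Cdk2, E2f1, Pcna, Mcm2 to Mcm7, and genes that passed against most others. Of each other list the 3 largest changes, genes against its direction and the brightest gene passing in neither are named. Alternatives were a trended and robust prior, a threshold of 0.01, 2 other scalings, the mean of all clusters of a gene, only genes above the median level, only the groups compared, the replicate letter as a block, and leaving out each array.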

Additional observations from a re-analysis of the deposited data

Results flagged for a closer look

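For 25 genes the test of the interaction, the Foxp3-positive against control effect in CD8 cells minus that in CD4 cells, passed an adjusted p of 0.05 in limma. All were below 0, so CD8 cells had the lower log2 fold change. Among licensing genes the differences were -0.63 for Cdt1, -0.74 for Mcm3, -0.59 for Mcm5, -0.51 for Mcm6 and -0.76 for Mcm7. Among helicase activators they were -0.67 for Mcm10, -0.66 for Cdc45, -1.14 for Gins1 and -0.68 for Gins3. Among polymerases and primase they were -0.63 for Pola1, -0.49 for Pola2, -0.85 for Prim1, -0.39 for Prim2, -0.83 for Pole, -0.70 for Pole2 and -0.80 for Pold1. The other genes of the replication fork gave -0.60 for Rfc5, -0.56 for Chaf1a and -0.58 for Chaf1b. Ribonucleotide reductase gave -0.79 for Rrm1 and -0.67 for Rrm2. The control genes gave -0.67 for Cdk2, -0.92 for E2f2, -0.88 for E2f8 and -0.70 for Chek1. Groups of 3 arrays are too small for a test of single arrays that stand apart.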

How the results depend on the processing

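Leaving out 1 array never changed the sign of the median of the 39 genes in CD8 cells, in the interaction or between control groups. The medians in CD4 cells and between Foxp3-positive groups lay close to 0 and did change sign. In CD8 cells leaving out 1 array gave 34 to 37 genes lower and a median of -0.68 to -0.54, with 1 higher throughout. In CD4 cells the 3 falls became 0 at a threshold of 0.01 and 1 with arrays centred on the median. Centring moved the CD4 median of the 39 genes to 0.0011, against -0.05 as deposited. It also raised the median CD4 log2 fold change of all genes, from 0.0034 to 0.051. The 2 rises became 5 with a trended and robust prior or with only genes above the median level, where Prim1, Rrm1 and Cdk2 passed as well. Under both of these Cdt1 gained a call as a fall (adjusted p = 0.0299 and 0.0276, limma), and also after a second quantile normalisation (0.0478). Leaving out 1 array gave 0 to 4 falls, 2 rises and a median of -0.071 to 0.036. The interaction had 15 genes at a threshold of 0.01 and 18 to 31 without 1 array, with a median of -0.69 to -0.54. For CD8 against CD4 Foxp3-positive cells the 1 lower gene became 0 at a threshold of 0.01 or in a fit of these groups alone and 2 (with E2f8) with the trended prior or only genes above the median level. Without 1 array it gave 0 to 1 and a median of -0.11 to 0.0061. Control cells gave 25 to 35 genes higher, with a median of 0.48 to 0.59. With only genes above the median level, where all 39 genes lie, 23.9% of genes were lower and 20.1% higher in CD8 cells. In CD4 cells 19% were lower and 25.4% higher. The interaction was called lower for 19.5% and higher for 13.3%. Between control groups 27.4% were higher in CD8 cells and 17.5% lower. These shares are larger than those of all genes given beside the counts above. The cause of these shifts was not tested, apart from the thresholds and smaller sets of arrays themselves.

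Whether the replicate letters pair the samples is not settled, since a correlation over genes misses a shift shared by all genes of an array. Replicate C was the lowest array of both CD8 groups for most of the 39 genes. Residuals of same-letter arrays over all genes correlated at -0.10 to 0.14, with 2 of 18 pairs over 0.1. Over the 39 genes alone they correlated at -0.325 to 0.355, with 0.355 and 0.270 for letters B and C of the CD8 groups and -0.0863 for letter A. With the replicate block 36 genes were lower and 1 higher in CD8 cells, 2 lower and 2 higher in CD4 cells, and 26 passed the interaction (Cdc6 and Mcm2 gained a call and Prim2 lost it), with 1 gene lower between Foxp3-positive groups and 31 higher between control groups.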
